A study of Mus musculus with 12 samples.

Results

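RNA of 10 genes of the Wnt system was followed in mouse mesenchymal stem cells (MSCs) with and without p38α and with and without TGF-β. They were chosen by gene symbol. Of them, 4 encode Wnt ligands (Wnt4, Wnt5a, Wnt9a and Wnt11), 5 encode secreted Wnt inhibitors (Sfrp1, Sfrp2, Dkk2, Dkk3 and Wif1), and Axin2 encodes an inhibitor that the pathway induces in its own cells. Every probeset annotated to exactly 1 of these symbols was used, which gave 15 of the 45037 probesets on the array and 10 of the 17097 genes. 5 genes had 2 probesets and 5 had 1.

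The cells were bone marrow MSCs, immortalized by a 3T3 protocol, from mice with floxed alleles of Mapk14, the gene of p38α (Mapk14 lox/lox), and a tamoxifen-inducible Cre. All 4 groups carried the floxed alleles and the Cre. p38α∆ MSCs had received 4-hydroxytamoxifen, which activates the Cre, and WT MSCs had not. After serum starvation (0.5% serum), cells were left untreated or given 5 ng/ml TGF-β for 20 h. The arrays comprised 3 of p38α∆ MSCs with TGF-β (numbered 1, 2 and 4 in their titles), 2 of p38α∆ MSCs (1 and 3), 3 of WT MSCs with TGF-β (1, 3 and 4) and 4 of WT MSCs (1, 3, 4 and 4b). Whether arrays of 1 group came from separate cultures is not given in the sources used here. The p-values therefore describe the spread between these 12 arrays, whose number limits the precision.

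Wnt ligands are secreted glycoproteins that bind Frizzled receptors. With LRP5 or LRP6 as co-receptor they stabilize β-catenin, which then activates genes with TCF and LEF factors; with receptors such as Ror2 they act on cell shape and movement without β-catenin. Sfrp proteins and Wif1 bind Wnt ligands outside the cell, whereas Dkk proteins of the Dkk1 and Dkk2 type bind LRP5 and LRP6. In MSCs this system is known for its part in the choice between bone, cartilage and fat.

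The promoters of Sfrp2, the gene that passed the test below, and of Axin2, the usual target gene of β-catenin signaling, are shown as the 250 bases before the annotated start of each gene (RefSeq, GRCm38.p6, plus strand, 5′ to 3′). Sfrp2 lies at chr3:83766071-83766320 and Axin2 at chr11:108920099-108920348. Capitals mark CAGAC or its reverse complement, the core of the Smad-binding element through which TGF-β acts.
Sfrp2: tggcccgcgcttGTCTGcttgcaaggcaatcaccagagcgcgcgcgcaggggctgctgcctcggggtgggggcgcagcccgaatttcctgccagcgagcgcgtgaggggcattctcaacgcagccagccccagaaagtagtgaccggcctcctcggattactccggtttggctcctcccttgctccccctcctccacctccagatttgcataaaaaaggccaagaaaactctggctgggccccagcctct
Axin2: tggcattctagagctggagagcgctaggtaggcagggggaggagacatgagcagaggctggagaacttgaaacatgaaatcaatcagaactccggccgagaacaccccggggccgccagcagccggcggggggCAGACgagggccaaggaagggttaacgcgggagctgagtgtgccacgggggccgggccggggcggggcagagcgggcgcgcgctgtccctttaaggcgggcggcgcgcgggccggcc

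Each of these windows held 1 such match, as did 42.2% of the 32851 promoter windows of this length. Neither held the AP-1 motif TGANTCA (6.75% of windows) or the TCF/LEF motifs CTTTGAA and CTTTGAT (7.48% of windows), all searched on both strands; none of the motifs overlapped here. A match is a description of the letters and not a bound site. RefSeq promoter windows were found for 7 of the 10 genes, 8 windows in all. Those of Wnt4, Wnt9a, Dkk2 and Wif1 held none of these motifs. A window of Wnt11 held 1 CAGAC match, and another window of Wnt11 held 1 TCF/LEF match and no CAGAC match.

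Across the whole series, the first principal component (50.6% of the variance) set the 4 arrays numbered 1, one in each group, apart from the other 8. Arrays of the same number were therefore treated as related in the fit (estimated correlation 0.46). Of 7 measured MSC markers, 6 lay above the median of all probesets, and Thy1 was below it. Among the 6, Eng and Mcam lay only a little above it (mean log2 values 4.60 and 4.57). None of 6 endothelial and none of 3 adipocyte markers lay above it, while all 6 osteoblast and chondrocyte markers did. These included Sp7 and Ibsp of the osteoblast lineage, and Acan was the closest to the median (4.48). Of 6 leukocyte markers 3 lay above it (Cd14, Cd68 and Csf1r, mean log2 values 4.60, 4.41 and 4.56), while Ptprc, the defining leukocyte marker, was near the bottom of the scale (2.78), and of 4 epithelial markers Krt8 lay just above it (4.29). The summed log2 level of the MSC markers was 51.3 to 51.5 in p38α∆ MSCs with TGF-β, 48.5 to 49.0 in p38α∆ MSCs, 49.8 to 50.3 in WT MSCs with TGF-β and 48.0 to 48.7 in WT MSCs, and its part in the results below was not tested. Mapk14 has 6 probesets, and none differed past the threshold between p38α∆ and WT MSCs with or without TGF-β; which of them lie in the deleted exon is not known here, so they do not check the labels.

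Levels below are the deposited log2 values, in which 1 unit is a doubling of signal. The brightness of a probeset depends on its sequence, so levels are compared between arrays and not between genes. The 7 genes whose brightest probeset lay above the median of all probesets (4.25) were Wnt4, Wnt5a, Wnt9a, Wnt11, Sfrp1, Sfrp2 and Axin2, with Wnt11 just above it (mean 4.34). Dkk2, Dkk3 and Wif1 lay below it.

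**Figure D1:**
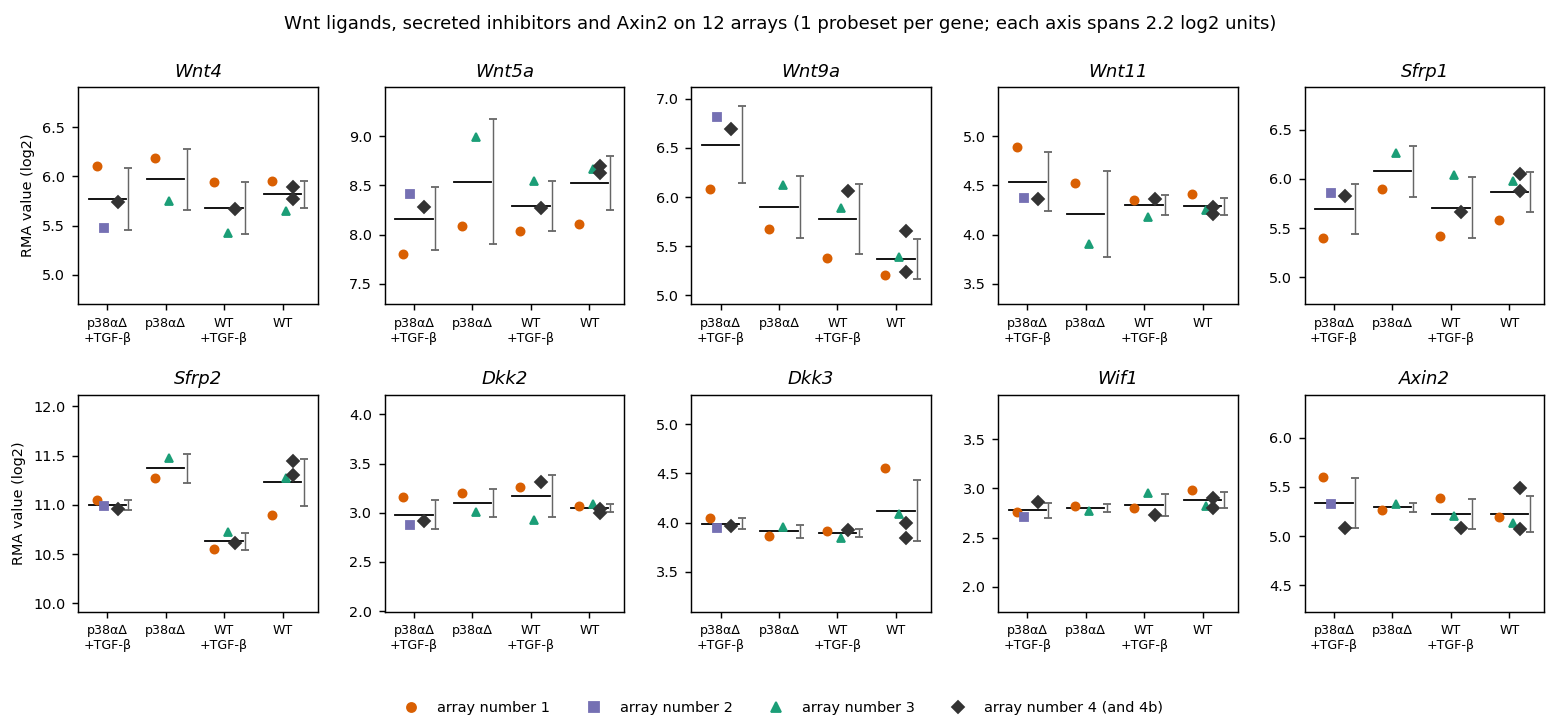
RMA values (log2, vertical axes, each spanning 2.2 units) of the brightest probeset of each of the 10 genes on the 12 arrays, by group. Points are arrays, with color and shape for the array number, lines are group means and bars their SD. Sfrp2 was lower in both TGF-β-treated groups than in their untreated counterparts, and Wnt9a was highest in p38α∆ MSCs with TGF-β.

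The first comparison asked how TGF-β changed these genes in cells that have p38α. Sfrp2, which encodes a secreted Frizzled-related protein that binds Wnt ligands, was the only one of the 15 probesets that passed, and it fell (3.06% of all probesets did). A probeset passed at an adjusted p under 0.05 over all 45037 probesets in limma; in WT MSCs 2704 did (6%; 994 when arrays of a number were not treated as related). Of the 10 genes, 8 had an estimate below 0 and 2 above it, with a median log2 difference of -0.10 against -0.01 over all genes. The 8 included Wnt11 (-0.0012) and Axin2 (-0.014), which changed sign in some alternatives. In p38α∆ MSCs 5 estimates were below 0 and 5 above it. The share of all genes below 0 was not counted, so these signs are a description.

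Sfrp2 had log2 values of 10.56, 10.73 and 10.61 in WT MSCs with TGF-β, against 10.89, 11.27, 11.31 and 11.45 in WT MSCs. The groups did not overlap, and 6.06% of all probesets had every treated array below every untreated one. The means were 10.63 ± 0.09 with TGF-β (SD, n = 3) and 11.23 ± 0.24 without (SD, n = 4). The fitted log2 difference was -0.59 (SE 0.10, 95% interval -0.80 to -0.37), a level 1.50-fold lower with TGF-β (adjusted p = 0.00404 in limma). Within a number the difference was -0.34 on the arrays numbered 1, -0.54 on those numbered 3 and -0.77 on those numbered 4, so each number gave the same direction. In bulk RNA, fewer cells that express a gene and less RNA per cell cannot be told apart.

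In p38α∆ MSCs, none of the 15 probesets passed for TGF-β, where 2347 of all probesets did (5.21%; 1058 when arrays of a number were not treated as related). At an unadjusted p under 0.05 there were 6 of the 15, against 7432 of all 45037. They had mixed signs: both Wnt9a probesets and Wnt11 had estimates above 0, and Sfrp1, Sfrp2 and the second Wnt5a probeset below 0. Sfrp2 had 11.05, 10.98 and 10.96 in p38α∆ MSCs with TGF-β, against 11.27 and 11.48 in p38α∆ MSCs. The treated arrays were again all lower, as 10.7% of all probesets were in this comparison of 3 arrays with 2. The fitted difference of -0.37 (SE 0.13, 95% interval -0.65 to -0.09) did not pass (adjusted p = 0.147), and it passed once the 4 arrays numbered 1 were left out (-0.51, adjusted p = 0.0424), which leaves 1 untreated p38α∆ array, assumed to vary like the other groups. The 2 responses of Sfrp2 were not shown to differ: the response in p38α∆ minus that in WT MSCs was 0.22 (SE 0.16, 95% interval -0.14 to 0.58, adjusted p = 0.945). For this difference of responses none of the 15 probesets passed, against 3 of all (0.00666%).

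Between genotypes with TGF-β, the Sfrp2 values of p38α∆ MSCs lay above all those of WT MSCs. The fitted difference was 0.39 (SE 0.11, 95% interval 0.15 to 0.64, adjusted p = 0.308), or 0.50 within number 1 and 0.35 within number 4, and did not pass. Of the 15 probesets, 3 had every p38α∆ array above every WT array with TGF-β (Wnt9a, Sfrp2 and Dkk3), against 4.41% of all probesets. Among them Dkk3 lay below the median of the array and differed by only 0.10. The second probesets of Wnt9a and Dkk3 overlapped between these groups. None of the 15 passed, as against 84 of all (0.187%; 19 when arrays of a number were not treated as related). Without TGF-β, Sfrp2 differed by 0.18 (SE 0.12) between p38α∆ and WT MSCs, and the groups overlapped.

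**Figure D2:**
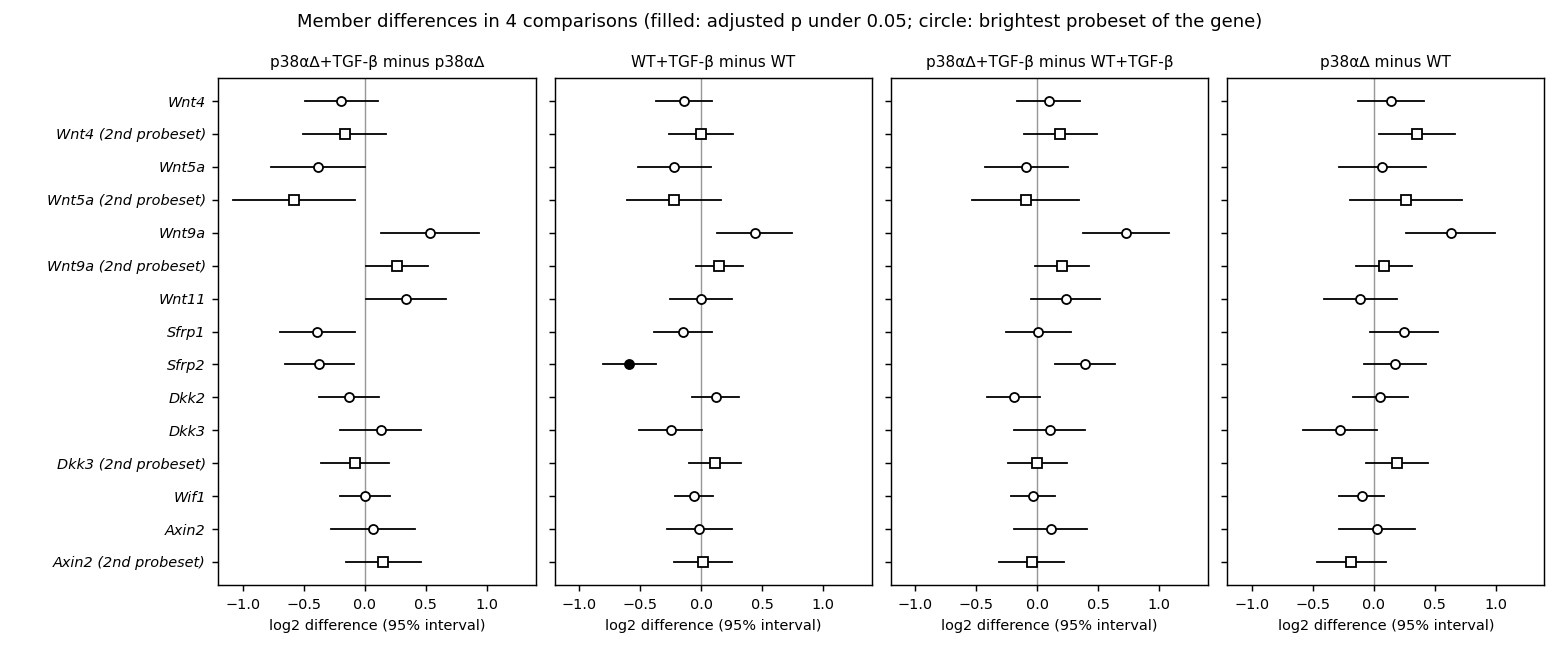
Log2 differences (horizontal axes, with 95% intervals) of the 15 probesets in 4 comparisons, each named by its subtraction. Circles are the brightest probeset of a gene and squares its second one, and filled symbols have an adjusted p under 0.05: Sfrp2 in WT MSCs (-0.59) is the only filled symbol.

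Sfrp1, a close relative of Sfrp2 that also binds Wnt ligands, did not pass in any comparison. It had 5.40, 5.85 and 5.82 in p38α∆ MSCs with TGF-β, against 5.89 and 6.26 in p38α∆ MSCs. These groups did not overlap, with every treated array lower, as was the case for 10.7% of all probesets in this comparison. The array numbered 1 was the lowest of each group. The fitted difference was -0.39 (SE 0.14, adjusted p = 0.168), and within number 1 it was -0.50. In WT MSCs the values were 5.42, 6.04 and 5.67 with TGF-β, against 5.58, 5.98, 6.05 and 5.87 without, a difference of -0.15 (SE 0.11) in groups that overlapped.

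The inhibitors Dkk2, Dkk3 and Wif1 gave little signal. Dkk2, which binds the co-receptors LRP5 and LRP6, ranged from 2.88 to 3.32 over the 12 arrays. Dkk3, a divergent member of the Dkk family, ranged from 3.84 to 4.56 on its brighter probeset and from 3.71 to 4.19 on the other. Wif1, which binds Wnt ligands through its WIF domain, ranged from 2.71 to 2.99. The Dkk3 value of 4.56 was WT array 1, and its second probeset had 3.78 on that array, so the 2 probesets did not move together (r = -0.16 over 12 arrays, a description). Dkk3 and Wif1, together with Dkk2 and the second Wnt4 probeset, made up the 5 probesets below the median of the array, with log2 differences between -0.28 and 0.38 over the 4 comparisons and the difference of the 2 responses and no adjusted p under 0.316.

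Among the ligands, Wnt9a stood out by its size of difference but did not pass. Wnt9a is known from mouse joint development, where it signals through β-catenin. Its brighter probeset had 6.08, 6.82 and 6.70 in p38α∆ MSCs with TGF-β, against 5.38, 5.89 and 6.06 in WT MSCs with TGF-β. The values of p38α∆ MSCs without TGF-β were 5.67 and 6.12, against 5.21, 5.39, 5.24 and 5.66 in WT MSCs. All p38α∆ arrays were above all WT arrays in both pairs, although the margin between the closest arrays was small.

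The Wnt9a difference between genotypes was 0.73 with TGF-β (SE 0.16, 95% interval 0.38 to 1.08, unadjusted p = 0.000784, adjusted p = 0.141 in limma), a 1.66-fold higher mean signal. Within number 1 it was 0.70 and within number 4 it was 0.63. Without TGF-β it was 0.63 (SE 0.17, 95% interval 0.26 to 1.00, unadjusted p = 0.00299, adjusted p = 0.987), with 0.46 within number 1 and 0.73 within number 3. None of the 45037 probesets passed between untreated p38α∆ and WT MSCs (0%), and 2049 had an unadjusted p under 0.05. Non-overlap with p38α∆ above WT, seen for 1 of the 15 probesets there, was seen for 3.69% of all.

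The second Wnt9a probeset did not show this difference. It gave 0.20 between p38α∆ and WT MSCs with TGF-β (SE 0.10, adjusted p = 0.769) and 0.08 without (SE 0.10), with overlapping groups. The probesets correlated weakly over the 12 arrays (r = 0.38), and they moved in opposite directions on the arrays numbered 1, which were the lowest of every group on the brighter probeset and the highest of every group on the other.

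TGF-β gave estimates above 0 for both Wnt9a probesets in both genotypes, none of which passed. On the brighter probeset the response was 0.54 in p38α∆ MSCs (SE 0.18, adjusted p = 0.144) and 0.44 in WT MSCs (SE 0.14, adjusted p = 0.109). On the other it was 0.26 in p38α∆ MSCs (SE 0.11) and 0.15 in WT MSCs (SE 0.09). The response in p38α∆ minus that in WT MSCs was 0.10 on the brighter probeset (SE 0.24, 95% interval -0.42 to 0.62). The p38α∆ response passed after quantile normalization (0.61, adjusted p = 0.0487), and the WT response passed when only probesets above the median level were tested (0.44, adjusted p = 0.0495).

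**Figure D3:**
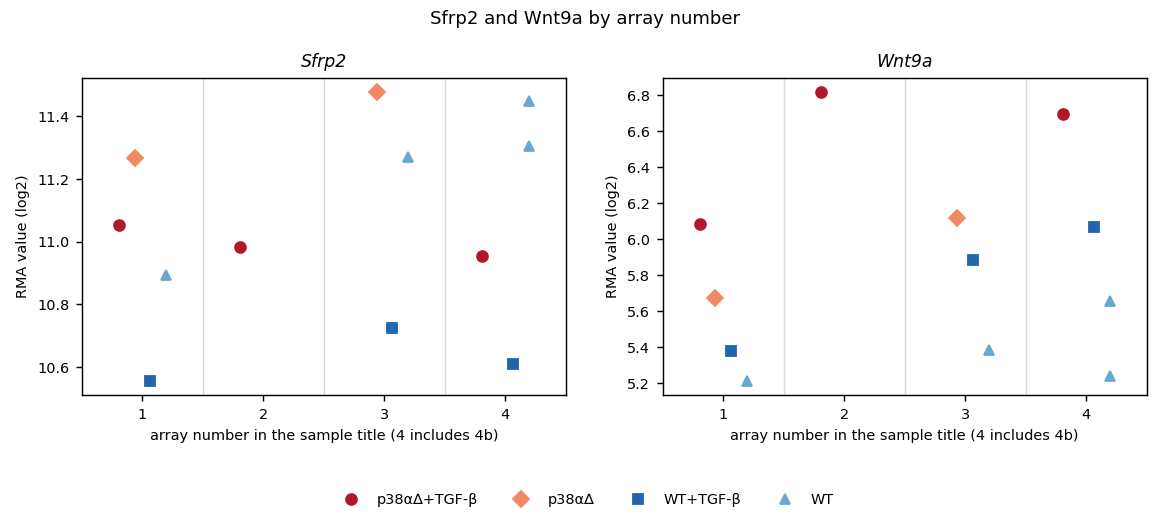
RMA values (log2, vertical axes, not starting at 0) of the brightest probesets of Sfrp2 and Wnt9a against the array number in the sample title (horizontal axis, 4b drawn with 4), 1 symbol per array and 1 color per group. Where a number held both groups, Sfrp2 was lower with TGF-β than without in the same genotype. Likewise Wnt9a was higher in p38α∆ than in WT MSCs at the same treatment. Number 2 held 1 array, and only number 1 held p38α∆ MSCs of both treatments.

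Wnt5a, the main ligand of the branch without β-catenin, differed more between array numbers than between groups. Its brighter probeset had 7.80, 8.41 and 8.28 in p38α∆ MSCs with TGF-β, against 8.09 and 8.99 in p38α∆ MSCs. It had 8.04, 8.55 and 8.27 in WT MSCs with TGF-β, against 8.11, 8.67, 8.69 and 8.63 in WT MSCs. The first value of each group is the array numbered 1, which was lower than the mean of the others by 0.37 to 0.90.

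The TGF-β response of Wnt5a was -0.38 in p38α∆ MSCs (SE 0.18, adjusted p = 0.311) and -0.22 in WT MSCs (SE 0.14, adjusted p = 0.482), and neither passed. Without the 4 arrays numbered 1 the response in p38α∆ MSCs was -0.63 and passed (adjusted p = 0.0322), again against 1 untreated array. The second probeset gave -0.58 in p38α∆ MSCs (SE 0.23, adjusted p = 0.214) and -0.22 in WT MSCs, and the 2 probesets ran in parallel over the 12 arrays (r = 0.97). Between p38α∆ and WT MSCs, Wnt5a differed by -0.09 with TGF-β (SE 0.15) and by 0.07 without (SE 0.16).

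Wnt4, a ligand of kidney and gonad development, did not pass in any comparison. It had 6.11, 5.47 and 5.74 in p38α∆ MSCs with TGF-β, against 6.19 and 5.75 in p38α∆ MSCs, and 5.94, 5.42 and 5.66 in WT MSCs with TGF-β, against 5.96, 5.65, 5.77 and 5.89 in WT MSCs. The array numbered 1 was the highest in all 4 groups. The TGF-β response was -0.19 in p38α∆ MSCs (SE 0.14) and -0.14 in WT MSCs (SE 0.10). The second, dimmer Wnt4 probeset gave 0.35 between untreated p38α∆ and WT MSCs (SE 0.14, unadjusted p = 0.0287, adjusted p = 0.987), where the brighter one gave 0.14 (SE 0.12).

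Wnt11, which acts mainly without β-catenin, had 4.89, 4.37 and 4.36 in p38α∆ MSCs with TGF-β, against 4.52 and 3.90 in p38α∆ MSCs. In WT MSCs it had 4.35, 4.18 and 4.37 with TGF-β, against 4.41, 4.25, 4.21 and 4.27 without. The p38α∆ groups overlapped: the array numbered 1 was the highest of each, and array 3 of p38α∆ MSCs was the lowest of all 12. The response was 0.34 in p38α∆ MSCs (SE 0.15, unadjusted p = 0.0432, adjusted p = 0.281) and close to 0 in WT MSCs (95% interval -0.25 to 0.25), and the difference of the 2 responses did not pass (0.34, SE 0.19, 95% interval -0.08 to 0.76, adjusted p = 0.945).

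Axin2, which holds the β-catenin destruction complex together and is induced when β-catenin signaling is on, showed no difference that passed. Its brighter probeset had 5.60, 5.33 and 5.09 in p38α∆ MSCs with TGF-β, against 5.26 and 5.33 in p38α∆ MSCs. In WT MSCs it had 5.38, 5.20 and 5.08 with TGF-β, against 5.20, 5.14, 5.49 and 5.07 without. All 4 groups overlapped one another. The TGF-β response was 0.07 in p38α∆ MSCs (SE 0.16, 95% interval -0.28 to 0.41) and -0.01 in WT MSCs (SE 0.12, 95% interval -0.28 to 0.25). Between genotypes the difference was 0.11 with TGF-β (SE 0.14, 95% interval -0.19 to 0.41) and 0.03 without (SE 0.14, 95% interval -0.29 to 0.34). The second probeset gave TGF-β responses of 0.15 in p38α∆ MSCs (95% interval -0.16 to 0.46) and 0.02 in WT MSCs (-0.22 to 0.25). Between genotypes it gave -0.05 with TGF-β (95% interval -0.31 to 0.22) and -0.18 without (-0.46 to 0.10). None of these passed, and the 2 probesets correlated weakly over the 12 arrays (r = 0.34).

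Over the 12 arrays, Wnt5a and Sfrp1 varied together (r = 0.90) and Wnt5a and Wnt11 in opposition (r = -0.89). These are descriptions of 12 arrays that share the offset of the arrays numbered 1. The genes whose pattern was most like that of Sfrp2 were Synm, which encodes an intermediate filament protein (r = 0.99), Antxr1, a collagen-binding membrane protein (r = 0.98), and Cd24a, a surface glycoprotein (r = 0.96). For Wnt9a they were Smoc2, a secreted matrix-associated protein (r = 0.95), Insc (r = 0.95) and Ptprm, a receptor phosphatase of cell contacts (r = 0.95). For Wnt5a they were Zadh2, Ugp2 and Il1rap (r = 0.98 each). All were picked for the highest r among all genes other than the 10, so the size of r is a description.

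The rest of the pathway was read from 7 lists, with each of 97 measured genes counted once and represented by its brightest probeset. TGF-β changed 17 of them in p38α∆ MSCs (9 rose and 8 fell, 17.5%) and 19 in WT MSCs (10 rose and 9 fell, 19.6%), against 7.1% and 7.95% of all 17097 genes. Of all genes, 2.99% rose and 4.11% fell in p38α∆ MSCs, and 3.47% rose and 4.48% fell in WT MSCs. Of the 97 genes, 12 passed in both genotypes, all in the same direction, which is 12 of 17 and 12 of 19. The matching share was not counted over all genes, so this overlap does not mark these genes off from others. Of the 37 passes in all comparisons, 19 held under every alternative tried, and 5 were lost in most of them (Fzd1, Ror1 and Tcf7l2 in WT MSCs, Rspo3 in p38α∆ MSCs, and Prickle2 between genotypes). The lists were chosen with earlier results of these data known, so the counts are a description.

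Among receptors and co-receptors, 3 of 20 rose in p38α∆ MSCs and 2 fell, and in WT MSCs 5 rose and 3 fell. Lgr6, a receptor for R-spondins, which strengthen Wnt signals, had 7.59, 7.98 and 8.14 in p38α∆ MSCs with TGF-β, against 5.86 and 5.49 in p38α∆ MSCs. It rose by 2.22 (SE 0.20, adjusted p = 8.05e-05) in p38α∆ MSCs and by 2.10 (SE 0.15, adjusted p = 1.47e-05) in WT MSCs. The Frizzled receptors did not move as 1 group. Fzd6 rose by 0.88 in p38α∆ MSCs and 0.73 in WT MSCs, whereas the estimates for Fzd5 were -0.92 and -0.71 and those for Fzd1 -0.39 and -0.24, all of which passed. Ror2, the receptor of Wnt5a, rose by 0.47 in p38α∆ MSCs and 0.58 in WT MSCs. In WT MSCs alone did Fzd7 (0.84), Kremen1, a receptor of Dkk proteins (0.53), and Ror1 (-0.32) pass, and the differences of the 2 responses did not pass for any of the 97 genes.

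Among feedback and target genes, 4 of 18 rose and 2 fell in p38α∆ MSCs, and 3 rose and 3 fell in WT MSCs. Ccn4, a matricellular protein also called Wisp1, rose by 1.86 in p38α∆ MSCs (SE 0.13) and 1.63 in WT MSCs (SE 0.10). Fgf18 rose by 1.94 and Cd44 by 0.68 in p38α∆ MSCs, and by 1.25 and 0.70 in WT MSCs. Bmp4, a ligand of the BMP branch, had 6.29, 7.02 and 7.06 in p38α∆ MSCs with TGF-β, against 8.31 and 8.54 in p38α∆ MSCs; its estimates were -1.65 in p38α∆ MSCs (SE 0.18) and -1.17 in WT MSCs (SE 0.14). Tnfrsf19 had -0.50 in p38α∆ MSCs and -0.57 in WT MSCs, and both passed. Fosl1, an AP-1 subunit, passed in p38α∆ MSCs (1.29), and Ccnd1, cyclin D1, in WT MSCs (-0.44). In WT MSCs mean Fosl1 was 8.01 with TGF-β against 7.40 without, and in p38α∆ MSCs mean Ccnd1 was 10.69 against 10.88. Axin2, itself a target of this kind, passed in neither genotype.

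**Figure D4:**
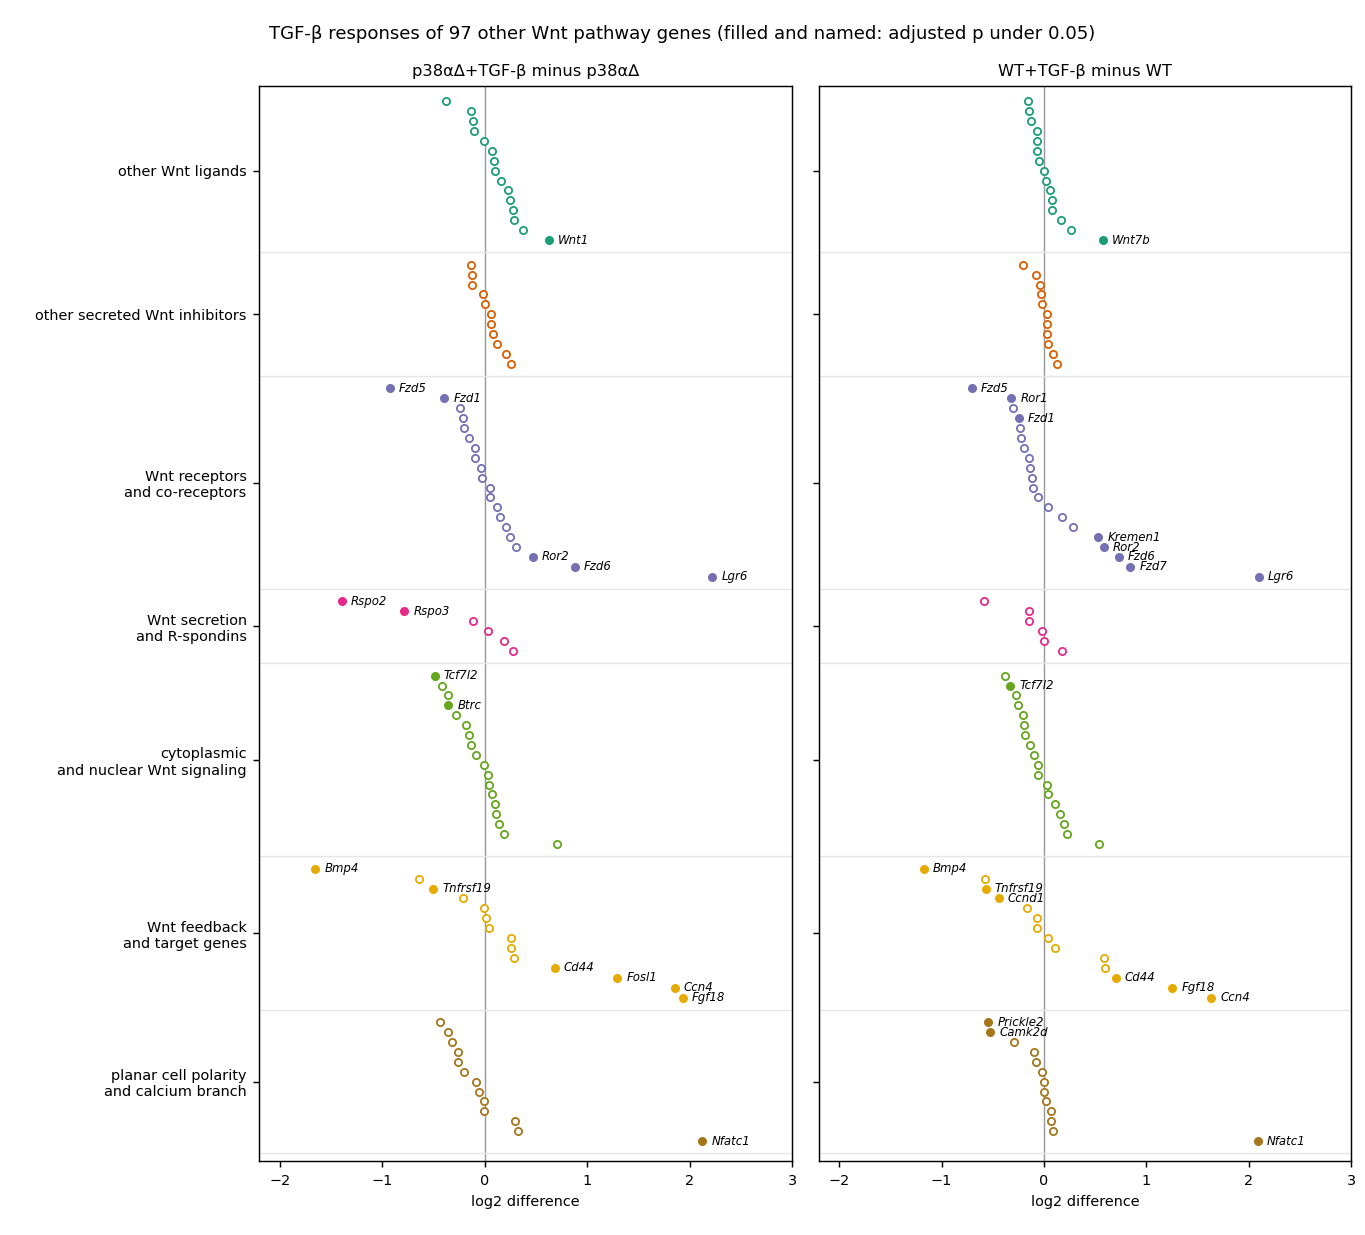
Log2 differences (horizontal axes) of 97 other Wnt pathway genes for TGF-β in p38α∆ MSCs (left) and in WT MSCs (right), 1 point per gene, sorted within each of 7 lists. Filled, named points have an adjusted p under 0.05. Lgr6 (2.22 and 2.10) and Nfatc1 (2.13 and 2.09) lie farthest right, Bmp4 (-1.65 and -1.17) farthest left, and the row of other secreted inhibitors holds no filled point.

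Of 15 other Wnt ligands, Wnt1 rose in p38α∆ MSCs (0.63, SE 0.12, adjusted p = 0.0109), at a level below the median of the array, and Wnt7b rose in WT MSCs (0.58, SE 0.08, adjusted p = 0.00162). The estimates in the other genotype were also above 0 but did not pass (Wnt1 0.26 in WT MSCs, Wnt7b 0.29 in p38α∆ MSCs). None of 11 other secreted inhibitors passed in either genotype. Sfrp2 was thus the only one of these 11 and the 5 inhibitors above that passed for TGF-β. Of all genes, 7.1% passed in p38α∆ MSCs and 7.95% in WT MSCs, so 1 pass among these inhibitors does not mark them off from other genes. The R-spondins Rspo2 (-1.39, SE 0.28) and Rspo3 (-0.78, SE 0.20) fell in p38α∆ MSCs. The untreated p38α∆ arrays of Rspo2 lay far apart (5.17 and 6.35). In WT MSCs neither passed, though mean Rspo2 was 4.88 with TGF-β against 5.46 without, and mean Rspo3 was 3.94 against 4.09. Rspo3 gave little signal, with group means from 3.82 to 4.68 beside the array median of 4.25. In the cytoplasmic and nuclear list, Tcf7l2, a partner of β-catenin on DNA, had -0.49 in p38α∆ MSCs and -0.33 in WT MSCs, both passing, and Btrc, which marks β-catenin for degradation, fell in p38α∆ MSCs (-0.35). In WT MSCs Btrc did not pass, with a mean of 8.71 with TGF-β against 8.91 without. In the list of the branches without β-catenin, Nfatc1, a calcium-regulated transcription factor, rose by 2.13 in p38α∆ MSCs (SE 0.13) and 2.09 in WT MSCs (SE 0.10), and Camk2d fell in WT MSCs (-0.52). In p38α∆ MSCs Camk2d did not pass, with a mean of 7.25 with TGF-β against 7.51 without.

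Between p38α∆ and WT MSCs, 1 of the 97 genes passed with TGF-β (0.263% of all genes did) and none without (0% of all genes). Prickle2, a component of planar cell polarity, had 5.34, 5.34 and 5.60 in p38α∆ MSCs with TGF-β, against 4.69, 4.90 and 5.05 in WT MSCs with TGF-β. It was higher in p38α∆ MSCs by 0.56 (SE 0.08, adjusted p = 0.0278), and fell with TGF-β in WT MSCs (-0.54, SE 0.07, adjusted p = 0.000968). The call between genotypes held in 9 of 21 alternatives, with adjusted p from 0.0224 to 0.232.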

How the data were processed

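RNA of MSCs was hybridised to 12 Affymetrix MG-430 PM arrays. The authors normalized and summarised the arrays by RMA with the R packages affy and affyPLM, and deposited log2 values, 1 per probeset, which were used without further scaling after 64 control probesets of 45101 had been left out. Gene symbols came from the platform annotation, in which 28898 probesets had 1 symbol, 551 several and 15588 none.

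All probesets were fitted together with limma 3.58.1 (R 4.3.3, lmFit and eBayes) over 12 arrays and 4 groups. P-values were two-sided and adjusted over 45037 probesets by the Benjamini-Hochberg method, at a threshold of 0.05. The study's methods adjust for scanning batch, which is not given in the sources used here. The array number was therefore entered as a random block (duplicateCorrelation). As a check of that pairing, all 14 pairs of arrays with the same number in different groups deviated together from their group means (r 0.11 to 0.84). Of the 39 pairs with other numbers, 12 also had r over 0.1, up to 0.74. The estimated correlation was 0.11 without the arrays numbered 1. The check therefore cannot tell pairing within the other numbers from the offset of the arrays numbered 1. The WT array titled 4b was taken as number 4. The fit was tested on simulated data of 45037 probesets, where it recovered 79% of changes of 1 log2 unit for TGF-β in p38α∆ MSCs and 83% in WT MSCs. All member estimates were smaller than 1 log2 unit. Changes of such sizes were not simulated, so these shares do not give the recovery there.

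The members and gene lists were chosen with earlier results of these data known. Likeness by Pearson's r was computed for the 7 genes whose brightest probeset lay above the median. The text names the 3 most like genes for Sfrp2, Wnt9a and Wnt5a only. It also names all member probesets and, from the lists, up to 6 genes that passed for each list and comparison by size. Fzd1 and Ror1 in WT MSCs fall outside this rule and were named after their values were seen. Genes outside the members are represented by their probeset with the highest mean. Alternatives were the fit without a block or with a fixed one, other probeset choices, only the groups compared, 4 and 4b averaged, arrays numbered 1 left out, quantile normalization, a filter on low values, eBayes with trend and robust, and each array left out.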

Additional observations from a re-analysis of the deposited data

Results flagged for a closer look

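In WT MSCs, the only group with 4 arrays, 1 array of Wnt5a lay far from the other 3 on both probesets. On the brighter probeset WT array 1 had a log2 value of 8.11, against 8.63 to 8.69 on the others, a gap of 0.885 of the range. On the second it had 7.40, against 8.21 to 8.36, a gap of 0.842 of the range. Both gaps are above the critical value of Dixon's test for 4 arrays. Of the 15 probesets checked these were the only 2, the probesets measure the same gene and correlate (r = 0.97), and chance flags about 1 in 20 groups. In the other groups the arrays numbered 1 were also the lowest for Wnt5a. What the number stands for is not given in the sources used here, and its part in the value was not tested.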

How the results depend on the processing

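Sfrp2 in WT MSCs passed in all 21 alternatives (log2 difference -0.70 to -0.53, adjusted p 0.000694 to 0.0385), and the genotype difference of the brighter Wnt9a probeset with TGF-β in none (0.61 to 0.88, adjusted p 0.0699 to 0.786). Of the 15 member probesets, 2 passed for TGF-β in p38α∆ MSCs without the 4 arrays numbered 1 and 1 after quantile normalization, and 2 passed in WT MSCs when only probesets above the median level were tested; in every other alternative the member count was as reported. The fit of only the groups compared could not be made for TGF-β in p38α∆ MSCs, whose groups share 1 number. The number of arrays and the dim signal of Dkk2, Dkk3 and Wif1 limit what could be detected.

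Without the replicate block (arrays of a number not treated as related), 1058 probesets passed for TGF-β in p38α∆ MSCs, 994 in WT MSCs, 19 between genotypes with TGF-β and 0 for the difference of responses, and the list genes numbered 11 for TGF-β in p38α∆ MSCs and 0 between genotypes with TGF-β. The block changed no call of a member probeset. With the block as a fixed term, 13 probesets and 0 list genes passed between genotypes with TGF-β and 0 probesets for the difference of responses. With 1 probeset per gene, where fewer features are tested, 1423 passed for TGF-β in p38α∆ MSCs, 1681 in WT MSCs and 0 for the difference. Without the arrays numbered 1, 32 probesets and 0 list genes passed between genotypes with TGF-β, and 0 probesets for the difference. With 4 and 4b averaged these were 2 list genes and 0 probesets, eBayes with trend and robust left 0 list genes between genotypes with TGF-β, and quantile normalization left 0 probesets for the difference. The cause of these changes was not tested beyond what each setting leaves out.

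With 1 array left out, 1161 to 2712 probesets passed for TGF-β in p38α∆ MSCs (fewest without p38α∆ array 3, and 1166 without p38α∆ array 1), 1541 to 3133 in WT MSCs (fewest without WT+TGF-β array 4; 1558 without its array 1, 1644 without its array 3 and 1661 without WT array 3), 8 to 115 between genotypes with TGF-β (8, 42 and 25 without p38α∆+TGF-β arrays 4, 1 and 2; 11, 31 and 14 without WT+TGF-β arrays 1, 3 and 4; 33 without WT array 3), 0 to 5 between untreated genotypes (5 without WT array 4b) and 0 to 1 for the difference of responses (1 without WT array 1, 0 without any other). List genes numbered 10 to 17 for TGF-β in p38α∆ MSCs (10 and 11 without p38α∆ arrays 1 and 3) and 0 to 2 between genotypes with TGF-β (2 without WT array 4b, 0 without each of the 7 other arrays just named for that comparison).

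Of 75 member values, 27 changed sign in some alternative; none of them had passed, and none was larger than 0.16 in size. For TGF-β in p38α∆ MSCs, Wif1 gave -0.023 without the block and Axin2 -0.13 without the arrays numbered 1. For TGF-β in WT MSCs, Wnt11 gave 0.010 and Axin2 0.00039 without the block. There the second Wnt4 probeset gave 0.00047 with a fixed block, 0.0070 with only the groups compared and 0.022 with 4 and 4b averaged, and Wnt11 gave 0.0088 with only the groups compared and 0.029 without the arrays numbered 1. Axin2 gave 0.019 and its second probeset -0.0083 with 4 and 4b averaged, and the second Dkk3 probeset gave -0.0034 without the arrays numbered 1. Between genotypes with TGF-β, Sfrp1 gave -0.017 without the block and -0.0040 without the arrays numbered 1, the second Dkk3 probeset -0.019 without the block and -0.014 with only the groups compared, and Wif1 0.0013 with only the groups compared. Between untreated genotypes, Dkk2 gave -0.017 without the arrays numbered 1 and Axin2 -0.021 after quantile normalization. For the difference of responses, Wnt9a gave -0.0090 with a fixed block, Wnt4 0.034 without the arrays numbered 1 and 0.028 after quantile normalization, and Axin2 -0.040 without the arrays numbered 1.

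Leaving out 1 array gave these ranges across 0. For TGF-β in p38α∆ MSCs they were -0.0060 to 0.24 for Dkk3 and -0.16 to 0.017 for its second probeset, -0.11 to 0.21 for Axin2 and -0.0026 to 0.34 for its second probeset, and -0.056 to 0.053 for Wif1. In WT MSCs they were -0.064 to 0.11 for the second Wnt4 probeset, -0.086 to 0.065 for Wnt11, and -0.072 to 0.089 and -0.048 to 0.070 for the Axin2 probesets. Between genotypes with TGF-β they were -0.073 to 0.094 for the second Dkk3 probeset, -0.063 to 0.11 for Sfrp1, -0.035 to 0.17 for Wnt4, -0.25 to 0.060 for the second Wnt5a probeset, -0.11 to 0.024 for Wif1, and -0.050 to 0.27 and -0.086 to 0.00090 for the Axin2 probesets. Between untreated genotypes they were -0.066 to 0.13 for Axin2, -0.19 to 0.34 for Wnt5a and -0.34 to 0.11 for Wnt11. For the difference of responses they were -0.20 to 0.029 for Wnt4, -0.0024 to 0.27 for Wnt9a, -0.11 to 0.21 and -0.018 to 0.33 for the Axin2 probesets, -0.46 to 0.073 for Wnt5a and -0.0094 to 0.12 for Wif1. The cause was not tested.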
